A study of Drosophila melanogaster with 3 samples.

Results

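The 10 genes described here act in the making of the fly nervous system: Dl, N and E(spl)mdelta-HLH of the Notch pathway, the neural precursor genes sc, ase, wor, pros and nub, and the neuronal genes elav and scrt. They were taken as a fixed list of 10 out of 13945 protein-coding genes on the 6 chromosome arms. The rule uses no measured value, but the list was chosen with earlier results of these data known. All 10 were found in the Ensembl annotation, where Dl is listed under the name Delta. Every peak whose summit lay inside one of these genes or within 5 kb of it was assigned to that gene. Of the 3515 peaks in the conservative list, which the authors made across replicates, 9 were assigned in this way, to 5 genes.

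Chromatin immunoprecipitation followed by sequencing (ChIP-seq) had been done with an anti-GFP antibody on whole Drosophila melanogaster embryos that carried a CG14050-eGFP fusion. The strain, CG14050-GFP, was 1 transgenic line, the embryos were aged 0 to 24 hours, and there were 3 biological replicates of this 1 group. The data hold no second condition, so all comparisons are between places in the genome. Chromatin came from the whole animal at mixed ages, so signal from neural cells and signal from other cells cannot be told apart, and no control library was analysed here.

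In the embryo, proneural proteins give clusters of ectodermal cells the ability to become neural. Within a cluster, the ligand Delta on one cell activates the receptor Notch on its neighbours, which then express repressors of the E(spl) family and stay epidermal. The selected cell becomes a neuroblast or a sensory organ precursor, divides asymmetrically, and its daughters go on to switch on neuronal genes such as elav.

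The strongest conservative peak of each of the 5 genes that had one is shown first, so that each of these genes is seen with the place where its own signal was highest. Each covers the summit and 50 bases on either side on the dm6 + strand, read from the RefSeq genome, with capitals marking a match to any of the motifs described further on.
N, chrX:3162518-3162618: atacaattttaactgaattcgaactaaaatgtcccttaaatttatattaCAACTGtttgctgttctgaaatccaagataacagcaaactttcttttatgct
E(spl)mdelta-HLH, chr3R:25996542-25996642: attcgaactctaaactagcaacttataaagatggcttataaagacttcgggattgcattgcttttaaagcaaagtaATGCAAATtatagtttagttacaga
pros, chr3R:11409924-11410024: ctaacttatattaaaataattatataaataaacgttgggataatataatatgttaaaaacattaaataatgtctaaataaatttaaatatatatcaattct
elav, chrX:523435-523535: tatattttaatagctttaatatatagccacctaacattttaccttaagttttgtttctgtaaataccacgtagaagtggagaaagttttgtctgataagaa
scrt, chr3L:3983624-3983724: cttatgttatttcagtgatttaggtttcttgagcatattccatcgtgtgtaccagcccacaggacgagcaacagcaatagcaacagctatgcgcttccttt
The capitals mark 1 CAACTG in the Notch intron and 1 ATGCAAAT beside E(spl)mdelta-HLH. The other 3 stretches held no match. The pros stretch was the most AT-rich of the 9 peaks, with 12.9% G and C.

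Signal is the authors' own measure of peak height, on a scale that no source used here states, and it is compared only within a list. Each thresholded list holds regions from a longer ranked list whose irreproducible discovery rate (IDR), an estimate of the share of irreproducible regions, was at most 1%. The conservative list came from 63709 ranked regions. The replicate lists held 2155, 2433 and 2282 peaks from 49504, 48710 and 46992 ranked regions in replicates 1, 2 and 3. Ranks count from the highest signal, and distances to a transcription start site (TSS) are negative upstream of it. Summit and midpoint were the same to within 1 bp in 81.3% of the conservative peaks, so most distances are those of peak centres.

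**Figure D1:**
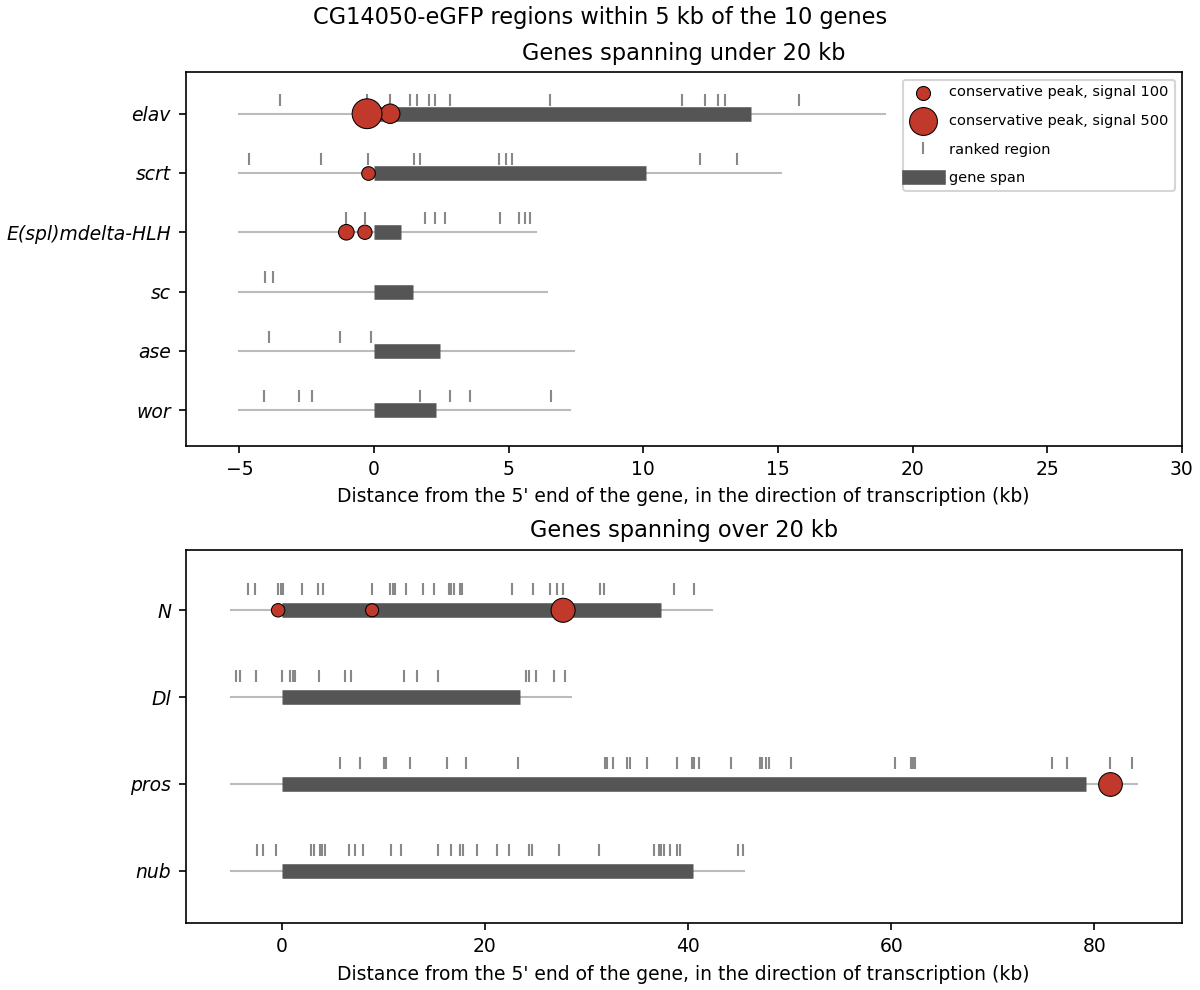
Summits within 5 kb of each gene, by distance from its 5′ end in kb, with conservative peaks as red circles sized by signal, regions of the ranked list as grey ticks and the gene span as a dark bar (short genes above, long genes below). Red circles lie at elav, scrt, E(spl)mdelta-HLH, N and pros, and the other 5 genes have grey ticks only.

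The receptor gene N, which spans 37.4 kb on X from 3134870 to 3172221 on the + strand, had 3 conservative peaks, the most of the 10 genes. The strongest lay in an intron 27698 bp downstream of its single TSS, with its summit at 3162568 and a signal of 364, rank 325 of 3515. Its signal was 95.3, 142 and 106 in replicates 1, 2 and 3, where it ranked 454, 281 and 527 among all ranked regions, so all 3 replicates held it among their strongest regions. The nearest TSS of any protein-coding gene to this summit was that of CG18508, 10572 bp away beyond the end of N.

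The other 2 peaks at N were weak and were in none of the 3 replicate thresholded lists. One lay 355 bp upstream of the N TSS, inside the 3′ UTR of the neighbouring gene kirre, which encodes a cell adhesion protein of muscle founder cells. Its conservative signal was 88.4, rank 2842. Replicate 1 held no ranked region there, and the region had an IDR of 54.0% in replicate 2 and 3.06% in replicate 3. The second weak peak lay in an intron 8903 bp downstream of the TSS, with a conservative signal of 82.3 and rank 2964. In the replicates it had a signal of 13.3, 30.5 and 29.1, with an IDR of 60.6%, 73.3% and 54.4%. Neither was in the other 3 thresholded lists made across replicates, all of which held the intron peak with the signal of 364.

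E(spl)mdelta-HLH encodes a basic helix-loop-helix repressor switched on by Notch, and spans 1.01 kb on 3R from 25997621 to 25998633 on the + strand. A pair of conservative peaks lay upstream of it, 1029 and 343 bp from its TSS, in or beside CG43116, a neighbour transcribed the other way. The CG43116 TSS was the nearer one for both, at 404 and 282 bp, so E(spl)mdelta-HLH was the nearest gene for neither. The farther peak, in an intron of CG43116, had a conservative signal of 132, rank 1793. It passed in all 3 replicates, with a signal of 53.2, 32.1 and 46.8. The peak 343 bp away had a conservative signal of 105, rank 2414. Its replicate signals of 29.0, 31.1 and 35.5 did not pass in any replicate, with an IDR of 16.6%, 2.4% and 1.27%.

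The ligand gene Dl, 23.5 kb on 3R from 19302731 to 19326217 on the − strand, had no conservative peak and no thresholded peak in any replicate. Its best region in the ranked list behind the conservative list lay in an intron 3631 bp downstream of the TSS, with a signal of 74.3, rank 4228 of 63709 and an IDR of 1.15%, just outside the limit of 1%. The same region had an IDR of 28.5%, 34.4% and 57.1% in the other 3 ranked lists made across replicates. Just inside that limit, the peak at scrt had an IDR of 0.801%. In the 3 replicates the lowest IDR near Dl was 26.1%, 31.7% and 19.7%, far from passing.

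Among the neural precursor genes, pros was the only one of 5 with a peak. It encodes a homeodomain protein that is handed to 1 daughter when a neuroblast divides and that ends self-renewal there. Its peak, on 3R with the summit at 11409974, had a conservative signal of 352, rank 350, and replicate signals of 90.0, 114 and 136, which passed in all 3. The summit did not lie inside pros, however. It was 2347 bp beyond the 3′ end of this 79.1 kb gene and 37186 bp from its nearest TSS. It lay between a divergent pair of genes, 73 bp upstream of the TSS of Irbp, a Ku protein of DNA end joining, and 99 bp from that of mgr, a subunit of the prefoldin chaperone. Within the body of pros no region passed in the conservative list.

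The proneural gene sc and the neuroblast gene ase, basic helix-loop-helix factors of the achaete-scute complex on X, had no peak in any thresholded list. Before thresholding, the ranked list behind the conservative one held 1.75 regions per 10 kb at sc and 2.41 at ase, against 4.72 on the arms. Replicates 1 and 2 held 0 at sc and 2.41 at ase, against 3.69 and 3.6. In replicate 3 sc held 5.25 and ase 3.22, against 3.48, so its sc window was not sparse. For sc the conservative list's ranked regions numbered 2, the higher with a signal of 14.7, rank 51295, and replicates 1 and 2 held 0 ranked regions, against 6 in replicate 3. For ase there were 3 ranked regions, the best with a signal of 31.7, rank 28179 and an IDR of 86.7%.

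The Snail-family neuroblast factor wor and the POU-domain factor nub, both on 2L, had ranked regions but no passing one. At wor 7 regions were ranked, the strongest 2814 bp downstream of the TSS with a signal of 54.1 and an IDR of 59.4%. At nub 33 regions were ranked in the list behind the conservative one, against 32 at pros, whose window is longer. Per 10 kb these were 6.53 at nub and 3.59 at pros. In replicates 1, 2 and 3 nub held 3.76, 5.15 and 5.35 per 10 kb, against 3.25, 3.7 and 4.6 at pros. The strongest region at nub, in an intron with a signal of 77.2 and an IDR of 8.62%, had the TSS of Ref2 nearest, at 1509 bp. In the other ranked lists made across replicates that region had an IDR of 2.28%, 10.1% and 1.57%. In the replicates no region at nub had an IDR under 9.19%.

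**Figure D2:**
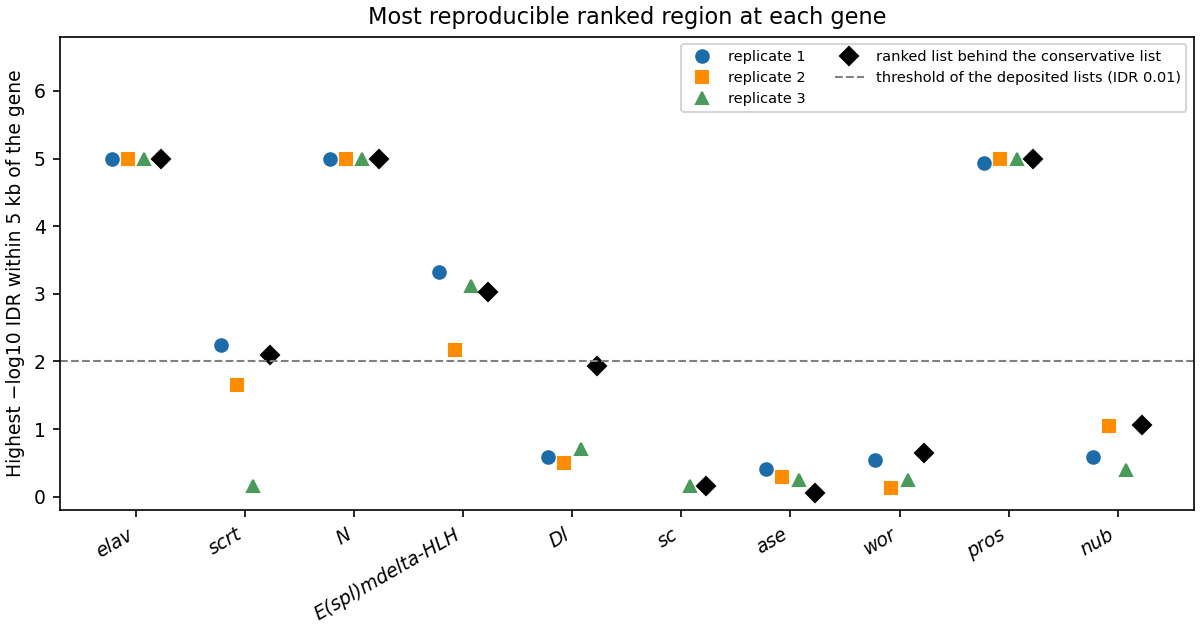
Highest −log10 IDR of any ranked region within 5 kb of each gene, in each replicate (coloured symbols) and in the ranked list behind the conservative list (black diamonds), with the dashed line at the deposited threshold of 2. The values stop at 5, the cap of the deposited files. All 4 symbols of elav, N, E(spl)mdelta-HLH and pros lie above the line, scrt straddles it, and the other 5 genes lie below it, with Dl just under it in the list behind the conservative one.

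The highest signal at the 10 genes was at elav, an RNA-binding protein gene used as a marker of neurons, 14.0 kb on X from 509235 to 523226 on the − strand. The summit at 523485 lay 259 bp upstream of the elav TSS, with a conservative signal of 579, rank 131 of 3515. In replicates 1, 2 and 3 its signal was 198, 185 and 205, and it ranked 109, 171 and 144 among all ranked regions, with summits within 20 bp of the conservative one. A second peak lay 603 bp downstream of the same TSS, in an intron, with a conservative signal of 225, rank 802. It also passed in all 3 replicates, with a signal of 71.8, 56.8 and 87.1. Both summits fall within introns of arg, the arginase gene, whose span overlaps elav. For both the elav TSS was the nearest protein-coding one, and the next, that of CG4293, was 6364 and 7226 bp away. At elav, then, no other protein-coding TSS lay within several kb of the peaks, while the peaks beside E(spl)mdelta-HLH and pros each had one closer than the gene's own.

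The scratch gene scrt, a Snail-family zinc finger gene expressed across the nervous system, spans 10.1 kb on 3L from 3983896 to 3994003 on the + strand. Its single peak lay 222 bp upstream of its TSS, and the next protein-coding TSS was 10775 bp away. The conservative signal was 92.6, rank 2744. Its signal was 37.8, 32.4 and 27.6 in replicates 1, 2 and 3, and the IDR was 0.567%, 2.25% and 76.8%, so replicate 1 was the only one in which it passed. All of the 4 across-replicate lists held it, with the same summit and signal.

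**Figure D3:**
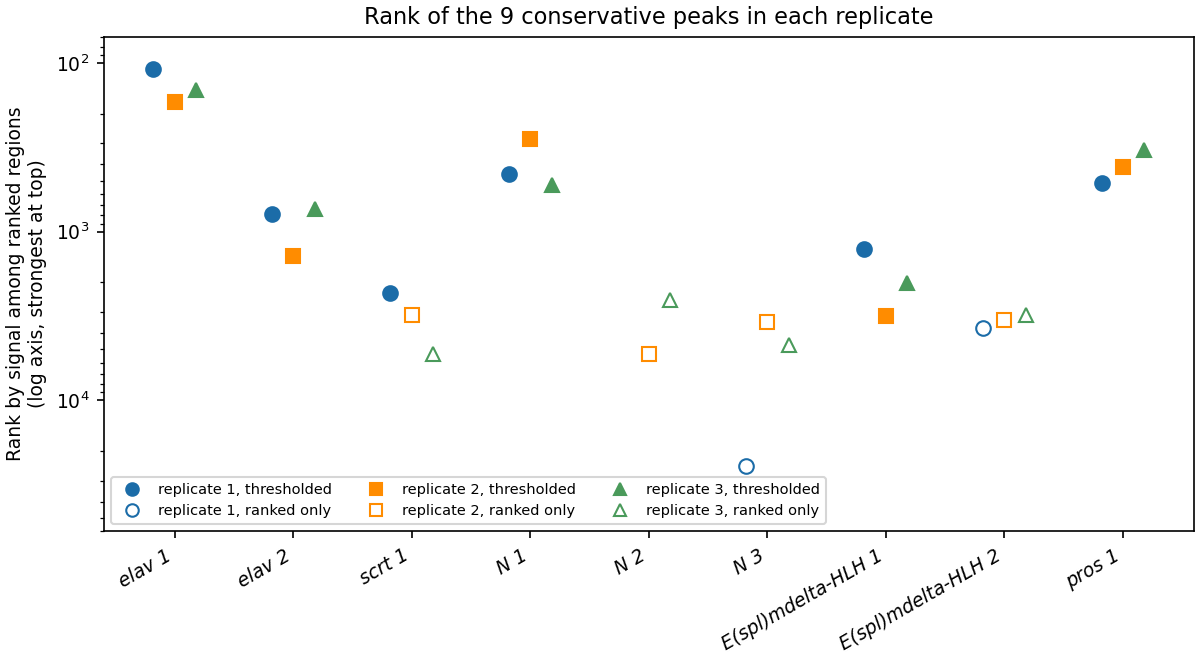
Rank by signal of the region that overlaps each of the 9 conservative peaks in replicates 1, 2 and 3 (log axis, strongest at the top), with filled symbols where it was in the thresholded list and open symbols where it was ranked only. The elav, strongest N, farther E(spl)mdelta-HLH and pros peaks are filled in all 3 replicates, and the weaker pair at N and the nearer E(spl)mdelta-HLH peak are open throughout. The peak labelled N 2 has no point for replicate 1.

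Set against the genome, the number of genes with a peak was near the share for all genes. In the conservative list 5 of the 10 genes had a peak (exact 95% binomial interval 18.7 to 81.3%), against 40.3% of all 13945 protein-coding genes. In replicates 1, 2 and 3 it was 5, 4 and 4 of the 10 genes (mean 4.33 ± 0.577 SD, n = 3), against 29.2%, 32.8% and 31.3% of all protein-coding genes. The intervals are wide at 10 genes and cover counting error only. Each of the 9 peaks was held by all 3 replicates, by 1 or by none. Leaving out a replicate here means filtering the conservative peaks by the other replicate lists, without remaking the conservative list. With any 1 replicate left out and both others required to hold the peak, only the 5 that all 3 held could be left. These lay at 4 of the 10 genes, against 23.3 to 25.7% of all genes. By the summit inside the gene alone, 2 of the 10 genes had a peak, N and elav, against 9.67%. The 10 genes are also long, with a median span of 12.1 kb against 2.17 kb for all genes, and longer windows hold more peaks. By length, 1 of 4 genes under 5 kb had a peak against 36.2% of all such genes, 2 of 2 genes from 5 to 20 kb against 50%, and 2 of 4 genes over 20 kb against 59.4%.

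Counted per length of DNA, the values were also near those of the arms. The windows of the 10 genes held 2.89 conservative peaks per 100 kb, against 2.62 on the chromosome arms. In the replicates they held 1.71 ± 0.185 peaks per 100 kb, against 1.71 ± 0.1 on the arms (SD, n = 3). Ranked regions were denser in these windows in all 3 replicates, at 4.25 ± 0.342 per 10 kb against 3.59 ± 0.105 on the arms (SD, n = 3), a difference that was not tested. Of the 157 regions ranked in the windows behind the conservative list 5.73% passed, against 5.67% of all its ranked regions.

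**Figure D4:**
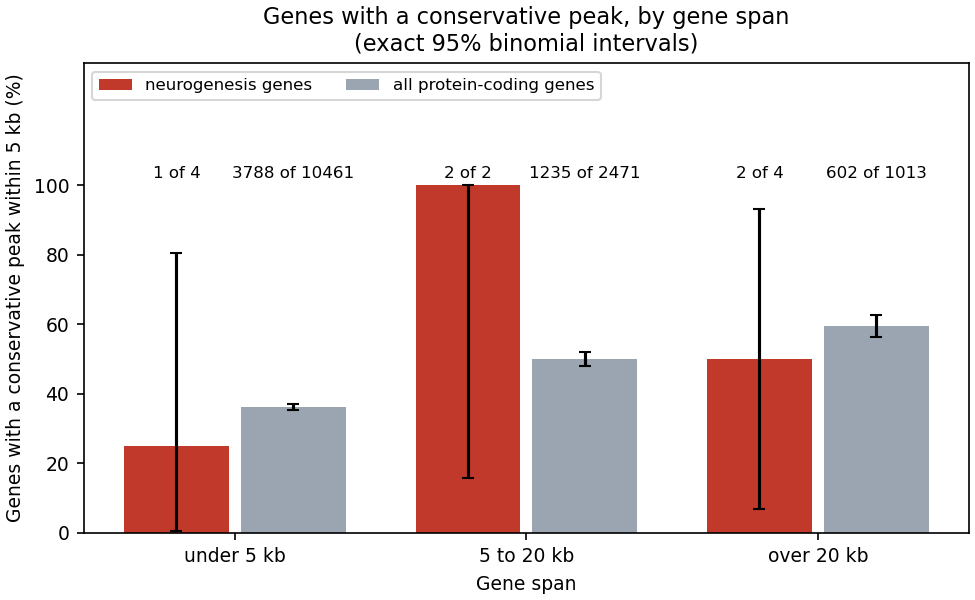
Share of genes with a conservative peak inside or within 5 kb, by gene span, for the 10 neurogenesis genes (red) and all protein-coding genes (grey), with exact 95% binomial intervals and the counts above. The grey share is 36.2% under 5 kb and 59.4% over 20 kb, and all 3 red intervals hold the grey value beside them.

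At their own promoters, taken as 500 bp on either side of a TSS, 4 of the 10 genes had a conservative summit (elav, scrt, N and E(spl)mdelta-HLH, interval 12.2 to 73.8%), against 14.3% of all protein-coding genes. In the replicates taken singly the counts were nearer to those of all genes. Replicate 1 had a promoter summit at elav and scrt, against 9.53% of all genes. Replicates 2 and 3 had one at elav alone, 1 gene in 10, against 11% and 10.7% of all genes. The promoter peaks of N and E(spl)mdelta-HLH passed only across replicates.

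By signal the 9 peaks ran from rank 131 to rank 2964 of 3515. Their median signal was 132, against 134 for all 3502 conservative peaks on the arms, and their median percentile was 49.0. That median rests on the weaker peaks, since it was 75.1, 75.3 and 77.3 in the other 3 thresholded lists made across replicates and 78.0 to 80.3 with any 1 replicate left out. Of the 9 peaks 4, at elav, N and pros, ranked at 802 or better of 3515. All 3 replicates held 5 of the 9 peaks (55.6%, interval 21.2 to 86.3%), against 40.6% of all conservative peaks, and none of the replicates held 3 of the 9 (33.3%, interval 7.49 to 70.1%), against 18.6%. Both intervals include the value for all peaks. The summit lay within 500 bp of some protein-coding TSS in 6 of the 9, against 45.8% of all peaks, and in an intron in 5 of the 9, against 48.8%. The peaks at elav and N put 5 of the 9 on X, which carries 19.7% of all conservative peaks and 4 of the 10 genes.

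**Figure D5:**
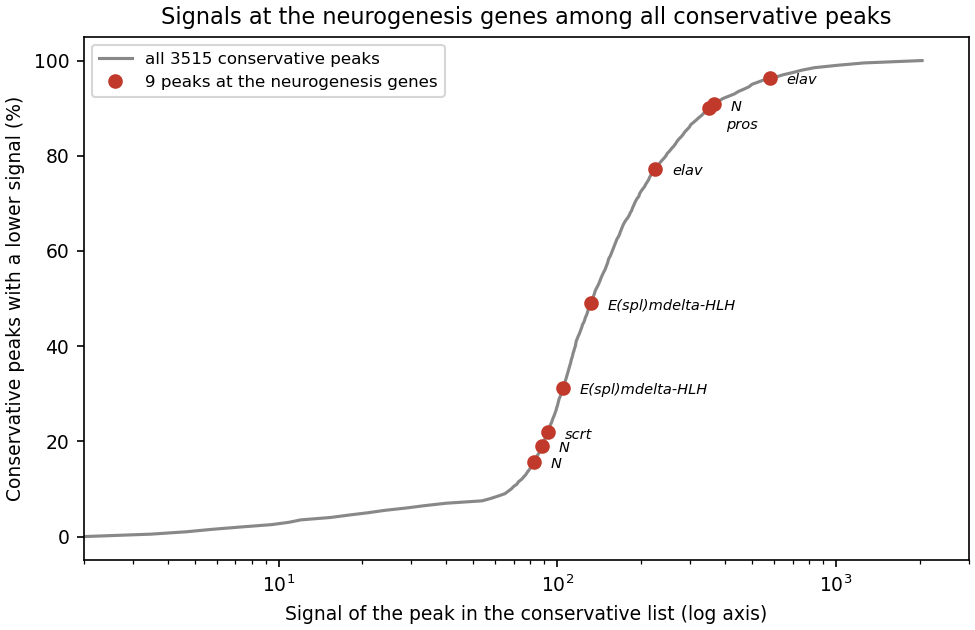
Signal in the conservative list (log axis) against the percentage of its peaks with a lower signal, for all 3515 peaks (grey line) and the 9 peaks at the neurogenesis genes (red points, named by gene). The points run from the weakest N peak at a signal of 82.3 to the elav promoter peak at 579.

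A gene-by-gene view sets each gene against all genes of its length class, and does not correct for length within a class. The best ranked signal near elav was higher than that of 95.8% of all protein-coding genes of 5 to 20 kb. For N and pros the figure was 89.7% and 88.5% of genes over 20 kb, and for E(spl)mdelta-HLH 76.5% of genes under 5 kb. For scrt it was 51.7% of genes of its length, for wor 44.0%, for nub 35.5% and for Dl 33.7%. The low end held ase at 10.8% and sc at 5.48%, near the bottom of their length class. All of these figures rest on the ranked list behind the conservative one. For pros the best signal was the 352 of the peak between Irbp and mgr, and the next highest in its window was 56.2.

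The 11 motifs searched within 50 bp of each summit, on both strands, were words bound by known factor families, and a word with no factor attached. The E-box CANNTG is bound by basic helix-loop-helix proteins, and it includes CAGGTG, which Snail-family proteins also bind, and CAGCTG, a form bound by many proneural proteins. The N-box CACNAG is a word of the E(spl) repressors, GTGGGAA of Su(H), CAGGTAG of the early activator Zelda, GAGAG of the GAGA factor, TATCGATA of DREF, ATGCAAAT of POU-domain proteins and AGNTGGCGC of CTCF. The word ACAGTG was included with no factor attached. An E-box lay in 2 of the 9 peaks, both at N, against 33.8% of all conservative peaks and 42.9% of the 59491 ranked regions on the arms that did not pass. GAGAG was in 1 of the 9, the elav intron peak, against 8.79% of all conservative peaks, and ATGCAAAT in 1, the E(spl)mdelta-HLH peak shown above, against 1.66%. The other 8 motifs were in 0 of the 9, which allows a share of up to 33.3% for each. Mean G and C content was 32.3% in the 9 stretches, near the 33.5% of all conservative peaks and below the 45.8% of the regions that did not pass. Such matches describe the letters only.

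A wider set of 89 genes in 6 lists, none of them among the 10, shows where else in the same processes peaks lay. In total 42 of the 89 had a conservative peak inside or within 5 kb, 47.2% against the 40.3% of all protein-coding genes, with a median span of 8.36 kb. The counts of the single lists below are to be read beside that same 40.3%, and none was tested. The share also rose with gene span, at 36.2% of all genes under 5 kb, 50% from 5 to 20 kb and 59.4% over 20 kb. Median spans were 1.22 kb for the proneural list, 3.85 kb for the Notch list, 4.99 kb for the glial list and 7.85 kb for the neuroblast list.

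Of the other proneural factors 2 of 9 had a peak, da and emc, both weak. The signal was 118 near da, the common partner of the proneural proteins, where the nearest TSS was that of mRpS7. Near emc, the inhibitor of those proteins, the signal was 61.0. There the nearest TSS was that of hng3, at 873 bp, and the emc TSS was 5216 bp away. The achaete-scute genes ac and l(1)sc had none, as did ato, amos, cato, tap and sens.

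Of 19 further Notch pathway and E(spl) genes 12 had a peak. The strongest, with a signal of 498 and rank 178, lay 143 bp from the TSS of gro, which encodes the co-repressor of the E(spl) proteins. The same peak falls in the windows of E(spl)m7-HLH and E(spl)m8-HLH, and the pair of peaks at E(spl)mdelta-HLH also counts for E(spl)mgamma-HLH, so these genes share peaks and are not independent. The Su(H) gene of the pathway's DNA-binding factor and Ser, the second ligand, had no peak.

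Of 12 genes of asymmetric division 9 had a peak, led by baz with 510, brat with 445 and numb with 384 in conservative signal. All 3 of these peaks passed in all 3 replicates. Both baz, a cortical polarity scaffold, and numb, the Notch inhibitor segregated to 1 daughter, were the nearest gene to their peaks, at 18700 and 241 bp. The brat peak lay 724 bp from the TSS of that tumour suppressor. The median span of this list was 13.2 kb, and mira, pins and l(2)gl had no peak.

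Of 20 neuroblast and temporal factors 6 had a peak. The highest conservative signals were 298 at br, 297 at chinmo and 220 at grh, all passing in 3 replicates, and the br peak had Mur2B as nearest TSS. The temporal factors hb, Kr, cas and pdm2 and the neuroblast gene dpn had none.

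Of 21 pan-neuronal and synaptic genes 10 had a peak. The leading signals were 348 at Gad1, where wit was nearer, 221 at Syx1A in its own intron, and 205 at nrv2, where nrv1 was nearer. The elav-family genes fne and Rbp9 had weaker peaks, at 104 and 153, against 579 at elav. The peak counted for Rbp9 lay 128 bp from the TSS of gammaTub23C and 13616 bp from that of Rbp9. The median span of this list was 27.7 kb, with 13 of the 21 genes over 20 kb, where 59.4% of all protein-coding genes had a peak.

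Of 8 glial genes 3 had a peak. One of them, 161 bp from the TSS of moody, a receptor of the glial blood-brain barrier, had a signal of 678 and rank 97, above the elav peak. The others were pnt with 137 and loco with 104, and the glial determinants gcm, gcm2 and repo had none.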

How the data were processed

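Peak lists of CG14050-eGFP ChIP-seq in embryos were used as the authors deposited them, on dm6 per the labels. Fragments of 200 to 800 bp were kept after sonication, per the labels. The authors' signal values and the −log10 IDR values of the deposited ranked lists were not rescaled. Neither labels nor headers name the aligner or the peak caller, and read depth was not used. They do not say which replicates stand behind the conservative list and the other 3 thresholded lists made across replicates.

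Genes came from Ensembl release 115 (BDGP6.54), and no peak ended past a chromosome arm of the reference. Off the 6 arms lay 13 conservative peaks. They were left out of the shares over all conservative peaks and of the densities on the arms. Ranks and percentiles were taken among all 3515 peaks. A summit was assigned to a gene if it lay inside it or within 5 kb, so 1 peak can count for several genes. A peak was shared with a replicate at an overlap of at least 1 bp. Shares have exact (Clopper-Pearson) 95% binomial intervals, and a count of 0 is given the limit of 3 counts. These cover counting error only, since neighbouring peaks and genes are not replicates. No test was run, since there is 1 group. Counts of genes with a peak are read beside the share over all protein-coding genes.

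All 10 genes are named, and from each wider list up to 3 genes with the highest conservative signal. Other names in those paragraphs were chosen after their values were seen. The genes, lists and motifs were chosen with earlier results of these data known. Window and motif functions were tested on simulated data. Python 3.11.15, numpy 2.4.6, pandas 2.3.3, scipy 1.17.1 and matplotlib 3.10.9 were used.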

Additional observations from a re-analysis of the deposited data

How the results depend on the processing

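The number of genes with a peak was 4 or 5 under 10 of 12 alternatives. It was 2 with the summit inside the gene only, and 3 where the gene also had to be the nearest TSS (chosen after seeing the data). No share over all protein-coding genes was taken for that last count, so it has no background to be read beside. The 9 peaks became 3 inside the genes only, 5 by nearest TSS, 5 at an IDR of at most 0.001, and 5 when any 1 replicate was left out. Leaving out 1 replicate or another gave the same 5 peaks, those that all 3 replicates held, so these settings are not separate checks. They only filter the conservative list, which was not remade. The promoter share of 66.7% became 0% inside genes, 62.5% for a window of 2 kb and 71.4% in each of the other 3 across-replicate lists. It was 60.0% at the stricter IDR and 60.0% without any 1 replicate. Within 200 bp of a TSS it was 11.1%, and within 1000 bp 77.8%. The share found in all 3 replicates was 100% at the stricter IDR. The median signal percentile of 49.0 was 77.2 inside genes and 40.2 for 2 kb. In those 3 lists, which lacked the weaker pair at N, it was 75.1, 75.3 and 77.3. It was 85.2 at the stricter IDR and 78.0 to 80.3 without 1 replicate. At the stricter IDR and without 1 replicate, the scrt peak, the weaker pair at N and the nearer E(spl)mdelta-HLH peak dropped out. The share of all protein-coding genes with a peak, 40.3%, was 9.67% inside genes, 27.8% for 2 kb, 54.4% for 10 kb, 37.4% and 37.6% in the lists that gave 75.1 and 75.3, 30.9% at the stricter IDR, and 23.3% to 25.7% without 1 replicate. The lists made across replicates gave the peaks they shared at the 10 genes the same summits and signals, so they are not separate checks either. The cause of the differences between the lists was not tested. No paired analysis was possible because there is 1 group. With 9 peaks, 1 peak moves a share by 11.1 percentage points.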

Other observations

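Between 5 and 10 kb from the genes lay 1 further peak, with a signal of 118 and rank 2062, 9492 bp beyond the end of elav and 215 bp from the TSS of svr. Within 100 bp of the summit in place of 50 bp, GAGAG lay in 4 of the 9 peaks (44.4%), against 22.2% of all conservative peaks. The E-box CANNTG lay in 3 of the 9 (33.3%), against 59.3% of all conservative peaks and 67.2% of the regions that did not pass. ACAGTG and CACNAG were in 0 of the 9, against 21.1% and 19.6% of all conservative peaks. All of these shares rest on 9 peaks, and no difference was tested.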
